A study of Mus musculus with 9 samples.

Results

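The interferon and antiviral response genes described here are Ifih1, Irf3, Irf7, Irf1, Stat2, Irf9, Ifit1, Bst2 and Isg15, a list of 9 genes that runs from a sensor of viral RNA to the proteins that block a virus. Each gene was represented by its brightest probe set with a single gene symbol. Isg15 was skipped because its probe set also carries the symbol Gm9706, which left 8 of the 19938 genes tested. The list was drawn up because every array comes from cells carrying a lentiviral hairpin and because embryonic stem cells are known for a weak interferon response.

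The 9 arrays hold total RNA of R1E cells, a line of mouse embryonic stem cells kept in serum with leukemia inhibitory factor and given no drug. The control group, shLuc, was transduced with a lentivirus whose short hairpin RNA targets luciferase, a firefly gene that mouse cells lack. The groups shApela #1 and shApela #2 each carried a lentiviral hairpin against Apela, which encodes a small secreted ligand of the apelin receptor and whose RNA the series title links to p53-driven cell death. Each group had 3 arrays, and the cells of all groups were transduced. The hairpin sequences and the number of clones or cultures are not given in the labels. The sources used here describe no untransduced group, so an effect of transduction common to all 9 arrays cannot be told apart from the cells' own level. In bulk RNA, fewer cells of a type and less RNA per cell cannot be told apart either.

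Cells recognise foreign RNA through receptors such as MDA5, the product of Ifih1, and RIG-I, the product of Ddx58. These switch on IRF3 and IRF7, which turn on the interferon genes. Secreted interferon then acts through its receptors and the JAK kinases to assemble a complex that includes STAT2 and IRF9, which binds the interferon-stimulated response element and raises many antiviral genes. Pluripotent stem cells make and answer interferon poorly compared with differentiated cells, and the response is gained on differentiation.

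Promoter stretches are shown for 4 measured members with a match before the start site to a binding element of the pathway, the kind of sequence through which such genes are known to respond. Windows from 250 bases before to 50 after each start site were taken from RefSeq on GRCm38.p6, and all 9 listed genes had at least 1. The response element was searched as GAAANNGAAA and the STAT dimer site, known as GAS, as TTCNNNGAA, on both strands. The first occurred in 3.44% of all 32851 windows and the second in 8.30%. The first was found for Ifih1, Stat2, Isg15, Ifit1 and Bst2, and the second for 1 of 2 windows of Irf1 and for Bst2, where it overlaps the first. The match of Ifih1 lies after the start site and Isg15 was not measured, so neither is printed. The windows of Irf3, Irf7 and Irf9 held neither run of letters. A match describes the letters and is not a measured binding site. In the stretches below, written 5′ to 3′ on the strand of the gene, capitals mark the letters matched to the response element, and in Irf1 those matched to GAS. The Ifit1 stretch lies at chr19:34640770-34640828 (plus strand) and the Bst2 stretch at chr8:71537572-71537617 (minus strand), each with 2 matches to the response element, which overlap each other in Bst2. The GAS match of Bst2, from -136 to -128, ends in the first capitals and begins in the lower-case letters before them. The Stat2 stretch lies at chr10:128270261-128270300 and the Irf1 stretch, with its GAS match, at chr11:53769909-53769947, both on the plus strand.
Ifit1: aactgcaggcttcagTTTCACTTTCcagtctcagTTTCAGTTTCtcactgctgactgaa
Bst2: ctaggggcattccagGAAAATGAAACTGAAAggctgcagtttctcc
Stat2: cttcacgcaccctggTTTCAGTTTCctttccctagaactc
Irf1: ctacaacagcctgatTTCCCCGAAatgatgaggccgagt

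All values are log2 expression from RMA, the authors' normalization, and a difference of 1 is a doubling. The targeted gene fell: Apela was lower on all 6 arrays with a hairpin against it, with a difference of -1.60 for shApela #1 and -1.58 for shApela #2 (limma, adjusted p = 0.000197 and 0.000219). The pluripotency markers Pou5f1 (lowest array 11.92), Nanog (12.24) and Sox2 (11.97) were detected on all 9 arrays, and 0 of the 9 pluripotency markers passed the test in any comparison. The third shApela #2 array stood apart, with an interquartile range of 3.29 against 3.50 to 3.59 on the other 8, so differences of the 8 genes and of the named pathway genes that involve that group are given with and without it. Where the third array is the lowest or highest of every group, leaving it out of 1 group alone also shifts the difference.

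None of the 8 genes passed the test with either hairpin. Against shLuc, 0 of 8 passed limma's test at an adjusted p of 0.05 with shApela #1, where 0.336% of all genes did, and 0 of 8 with shApela #2, where 0.015% did. Without adjustment, 0 of 8 passed limma's test at the same threshold in either comparison, against 7.69% and 5.77% of all genes. The 3 arrays of a hairpin were not all above or all below the 3 shLuc arrays for any of the 8 genes, whereas 13.7% and 10.3% of all genes were separated in this way. With shApela #1, 4 were higher and 4 lower, with a median of 0.0014 beside 0.0062 for all genes. With shApela #2, again 4 were higher and 4 lower, with a median of 0.0045 beside 0.015. Both comparisons use the same shLuc arrays. Without the third shApela #2 array the smallest adjusted p of the 8 was 0.931 for shApela #2 and 0.530 for shApela #1.

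The sensor Ifih1, which detects long double-stranded RNA, was dim, with a mean below the median of all probe sets (7.06), as were Irf7 and Ifit1. It measured 5.23, 5.18 and 5.23 on the shLuc arrays, 5.20, 5.23 and 5.23 with shApela #1, and 5.23, 5.23 and 5.39 with shApela #2. All but the last value lay between 5.18 and 5.23, and 5 arrays were listed at exactly the same value, 5.2315. The difference from shLuc was 0.0062 with shApela #1 (SE 0.049, 95% interval -0.10 to 0.12, limma adjusted p = 1) and 0.069 with shApela #2 (SE 0.049, -0.042 to 0.18, adjusted p = 0.686). The second difference was 0.016 once the third shApela #2 array was left out.

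Irf3, the factor that sensors activate first, measured 8.17, 8.23 and 8.41 in shLuc, 8.32, 8.33 and 8.54 in shApela #1, and 8.24, 8.32 and 8.32 in shApela #2. The highest array in shLuc and in shApela #1 was the third, and the shLuc range overlapped both others. The difference was 0.13 with shApela #1 (SE 0.076, -0.045 to 0.30, limma adjusted p = 0.876) and 0.023 with shApela #2 (SE 0.076, -0.15 to 0.20, adjusted p = 0.921, and 0.011 without the third array). The shApela #2 arrays all lay below the shApela #1 arrays, with a difference in means of -0.10 that did not pass (adjusted p = 0.534, and -0.12 without the third array).

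Irf7, which amplifies the interferon signal and is itself induced by interferon, was dim as well. Its values were 5.56, 5.49 and 5.44 in shLuc, 5.5, 5.51 and 5.47 in shApela #1, and 5.45, 5.47 and 5.89 in shApela #2. A single array, the third of shApela #2, lay 0.43 above the mean of the other 2 of its group, and the other 8 spanned 5.44 to 5.56. The difference was -0.0034 with shApela #1 (SE 0.10, -0.24 to 0.23, limma adjusted p = 1) and 0.10 with shApela #2 (SE 0.10, -0.13 to 0.34, adjusted p = 0.743). Without that array it was -0.038 for shApela #2 (adjusted p = 0.931).

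Irf1, a factor that interferon gamma induces, had the most negative of the 8 differences between shApela #1 and shLuc. Its levels were 8.92, 9.15 and 8.82 in shLuc, 8.82, 8.92 and 8.57 in shApela #1, and 8.97, 9.04 and 8.74 in shApela #2. In every group the second array was highest and the third lowest, and the ranges of the 3 groups overlapped. The difference was -0.19 with shApela #1 (SE 0.12, -0.46 to 0.079, limma adjusted p = 0.9) and -0.048 with shApela #2 (SE 0.12, -0.32 to 0.22, adjusted p = 0.897). Leaving out the third shApela #2 array gave 0.040 for the latter. The third shLuc array, also the lowest of its group, stayed in that fit. A dimmer probe set of Irf1 had means of 6.35, 6.36 and 6.40 in shLuc, shApela #1 and shApela #2.

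Stat2, the subunit that brings transcriptional activation to the interferon complex, varied most across the 9 arrays (SD 0.22). It measured 8.68, 8.87 and 8.47 in shLuc, 8.92, 8.88 and 8.59 in shApela #1, and 8.66, 8.77 and 8.23 in shApela #2. As for Irf1, the third array was the lowest of each group, by 0.31, 0.31 and 0.49 below the mean of the other 2 in shLuc, shApela #1 and shApela #2. The difference was 0.13 with shApela #1 (SE 0.16, -0.23 to 0.48, limma adjusted p = 1) and -0.12 with shApela #2 (SE 0.16, -0.47 to 0.24, adjusted p = 0.796). The value for shApela #2 was 0.044 without the third array.

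Irf9, which gives the complex its DNA contact, measured 7.98, 8.20 and 8.18 in shLuc, 8.12, 8.38 and 8.19 in shApela #1, and 8.06, 8.17 and 7.92 in shApela #2. The second array was highest in each group, and the ranges overlapped. The difference was 0.11 with shApela #1 (SE 0.092, -0.098 to 0.32, limma adjusted p = 1) and -0.069 with shApela #2 (SE 0.092, -0.28 to 0.14, adjusted p = 0.798). Stat2 and Irf9 therefore had the same order of group means, shApela #1 above shLuc above shApela #2, and no neighbours in that order passed the test. At each replicate number shApela #1 exceeded shLuc for both genes, and shApela #2 lay below shLuc for Stat2. The labels do not say that equal numbers mark paired arrays, so comparisons by number and the block rest on that assumption. With the block on replicate number the SE was 0.062 for Stat2 and 0.066 for Irf9, and shApela #1 against shLuc had limma adjusted p-values of 0.504 and 0.639. Without the third shApela #2 array the value of shApela #2 against shLuc was -0.0023 for Irf9 and 0.044 for Stat2. The third array of Stat2 was lowest in every group, so leaving it out of 1 group only raises that group's mean. At numbers 1 and 2 shApela #2 was below shLuc for Stat2 (8.66 and 8.77 against 8.68 and 8.87). For Irf9 it was above shLuc at number 1 and below at number 2.

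Ifit1, which binds viral RNA lacking the host cap structure and is among the strongest interferon-induced genes, was dim. It measured 5.32, 5.31 and 5.35 in shLuc, 5.31, 5.13 and 5.28 in shApela #1, and 5.31, 5.31 and 5.51 in shApela #2. The low and high ends were single arrays, and 4 arrays were listed at 5.3076. The difference was -0.090 with shApela #1 (SE 0.067, -0.24 to 0.063, limma adjusted p = 0.989) and 0.048 with shApela #2 (SE 0.067, -0.10 to 0.20, adjusted p = 0.806). Without the third shApela #2 array the latter was -0.018.

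Bst2, also known as tetherin, holds budding virus particles at the cell surface, and lentiviruses are among its targets. Its SD over all 9 arrays, 0.042, was the smallest of the 8, and 3 arrays, the second of each group, were listed at exactly 8.3701. It measured 8.32, 8.37 and 8.46 in shLuc, 8.41, 8.35 and 8.37 in shApela #1, and 8.34, 8.37 and 8.39 in shApela #2. The 3 group means were 8.38, 8.38 and 8.37. The difference was -0.0053 with shApela #1 (SE 0.045, limma adjusted p = 1) and -0.014 with shApela #2 (SE 0.045, adjusted p = 0.916, and -0.027 without the third array). The 95% intervals correspond to 0.928-fold to 1.07-fold and 0.922-fold to 1.06-fold of the shLuc level.

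**Figure D1:**
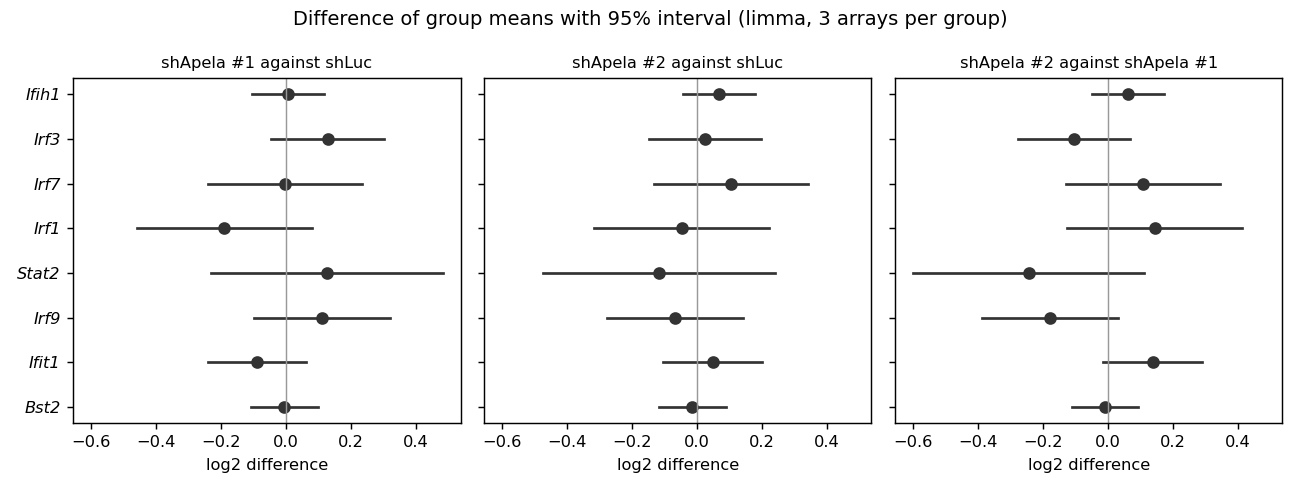
Log2 difference of group means (x axis) for 8 interferon and antiviral genes (y axis) in 3 comparisons, as points with limma's 95% interval. Every interval includes 0, and the intervals are widest for Stat2 (SE 0.16) and narrowest for Bst2 (SE 0.045).

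The hairpins were also set against each other. For shApela #2 against shApela #1, 0 of 8 genes passed the test beside 0.948% of all genes, 0 of 8 reached an unadjusted p of 0.05 beside 12.9%, and Irf3 was the 1 gene whose groups did not overlap, beside 17.6%. The differences ran from -0.24 for Stat2 (95% interval -0.60 to 0.11) to 0.14 for Irf1 (-0.13 to 0.41), with 4 higher, 4 lower and a median of 0.027 beside 0.019 for all genes. The smallest adjusted p belonged to Ifit1 (0.14, SE 0.067, limma adjusted p = 0.431) and Irf9 (-0.18, SE 0.092, adjusted p = 0.451). Without the third shApela #2 array the differences between the hairpins were -0.082 for Stat2, 0.23 for Irf1, -0.035 for Irf7, 0.071 for Ifit1, 0.010 for Ifih1, -0.021 for Bst2 and -0.11 for Irf9, and the smallest adjusted p of the 8 was 0.514. With the replicate number as a blocking term 0 of 8 passed in any comparison, and the unadjusted threshold was met by 2 genes in shApela #1 against shLuc, beside 12.1% of all genes, and by 4 between the hairpins, beside 18.5%. The 2 were Irf1 and Irf3 (limma adjusted p = 0.117 and 0.344), and the 4 were Stat2 (adjusted p = 0.0904), Irf1 (0.157), Irf9 (0.208) and Ifit1 (0.242).

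Within groups, the values of several members followed the array number. Stat2 and Irf1 were lowest on the third array of all 3 groups. On the third shApela #2 array the 3 dim genes, Irf7, Ifit1 and Ifih1, had a median deviation of 0.19 from their own means over 9 arrays, against -0.037 to 0.0050 on the other 8. The 5 brighter genes had a median deviation of -0.14 there, against -0.058 to 0.061 on the others. Over the whole table the median deviation on that array was 0.11 for dim genes and -0.046 for brighter ones. The part of that array's quality in the members' values was not tested.

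**Figure D2:**
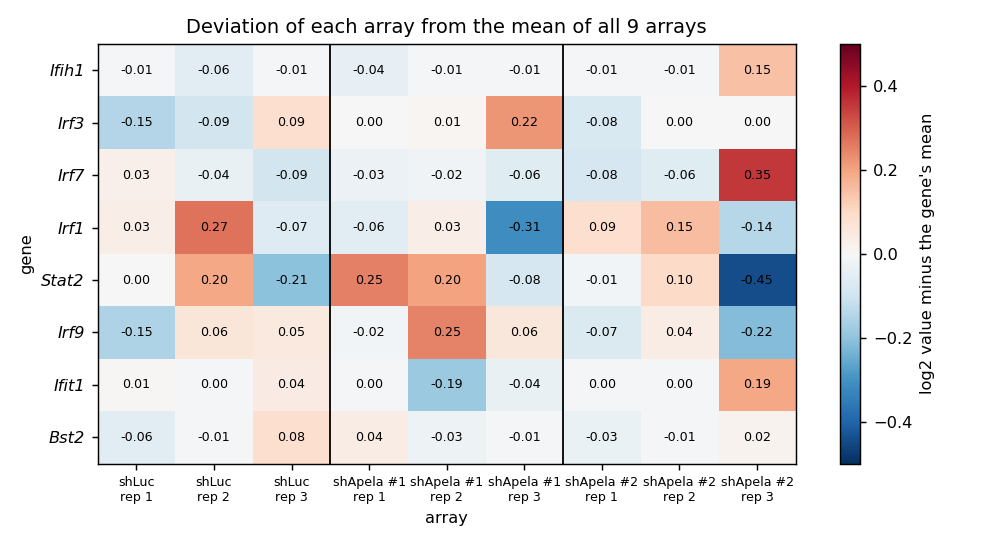
Deviation of each array (columns) from the mean of all 9 arrays, in log2 units, for 8 interferon and antiviral genes (rows). The third shApela #2 array holds both the most positive deviation, for Irf7 (level 5.89), and the most negative, for Stat2 (level 8.23), and the third arrays of all groups are low for Stat2 and Irf1.

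By likeness of pattern over the 9 arrays, Stat2 was closest to Klc1 (Pearson r 0.995), Kansl3 (0.991) and Tmem68 (0.990). For Irf1 the closest were Phf13 (0.976), Patj (0.961) and Prag1 (0.957), and for Irf7 Cbfa2t3 (0.994), Grrp1 (0.987) and Faah (0.985). Such values describe arrays that share a normalization and 1 array apart from the rest: of 10644 genes compared with Stat2, 518 had an r over 0.9, and the counts were 73 for Irf1 and 233 for Irf7.

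The rest of the pathway was read from a list of 99 further genes by role, of which 87 were measured. In shApela #1 and in shApela #2 against shLuc, 0 of 87 passed the test. Without adjustment 10 and 6 did, where 7.69% and 5.77% of all genes did. For shApela #2 against shApela #1, 1 passed, upward, and 16 did without adjustment, where 12.9% of all genes did. The medians over the list were 0.0022, 0.014 and 0.030 in the 3 comparisons, close to those of all genes (0.0062, 0.015 and 0.019). With the block on replicate number, 3 of the 87 passed in shApela #1 against shLuc (0.953% of all genes), 0 in shApela #2 against shLuc (0.0401%) and 5 between the hairpins (3.28%).

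**Figure D3:**
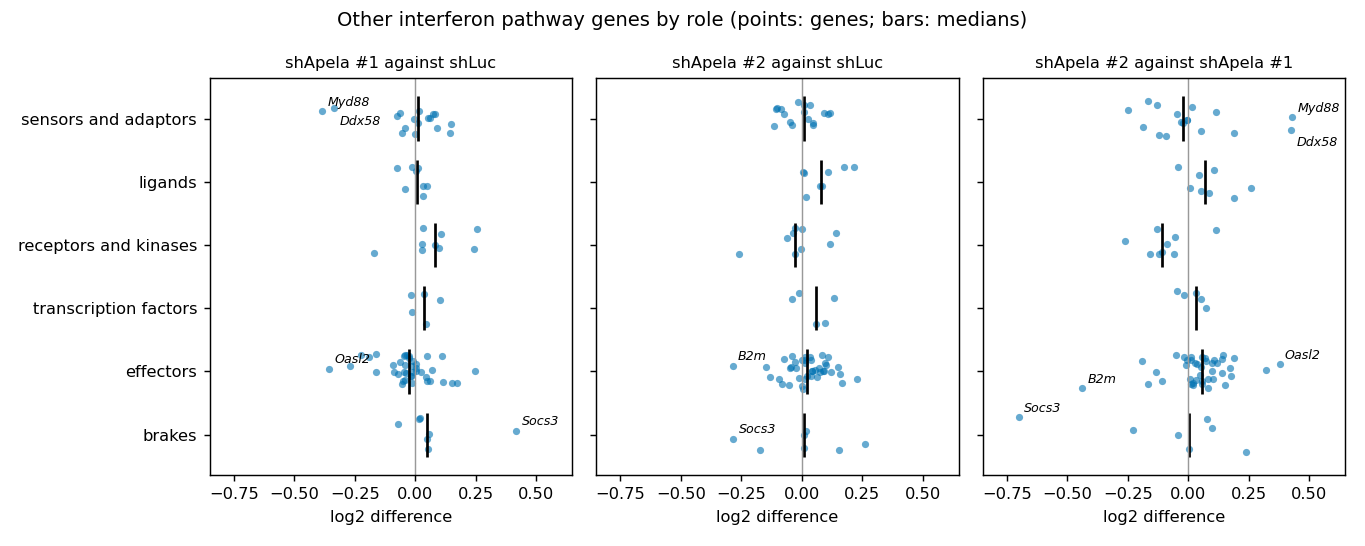
Log2 differences (x axis) of 87 other interferon pathway genes grouped by role (y axis) in 3 comparisons, with 1 point per gene and a bar at the median of each role. Most points lie close to 0, and between the hairpins Myd88 (0.43) lies far to the right and Socs3 (-0.70) far to the left.

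Among sensors and adaptors, Myd88, the adaptor of most Toll-like receptors, was the gene that passed: it was 0.43 higher with shApela #2 than with shApela #1 (SE 0.062, 95% interval 0.29 to 0.57, limma adjusted p = 0.0195). Its levels were 7.88, 7.87 and 7.99 in shLuc, 7.54, 7.51 and 7.52 in shApela #1, and 7.95, 7.84 and 8.08 in shApela #2. All 3 shApela #1 arrays lay below the other 6, which overlapped. Against shLuc it was -0.39 with shApela #1 (SE 0.062, adjusted p = 0.0504, and 0.0263 with the replicate block) and 0.045 with shApela #2 (SE 0.062, adjusted p = 0.803, and -0.015 without the third array). The call between the hairpins ended without any 1 of the shApela #1 arrays (adjusted p = 0.0874 without the first, 0.103 without the second and 0.0717 without the third), without the first shApela #2 array (0.0625) and in a fit of only those 6 arrays (0.0939). Without the third shApela #2 array it was 0.37 (adjusted p = 0.022), and in shApela #1 against shLuc Myd88 then passed too (adjusted p = 0.018).

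Ddx58, which encodes the RNA sensor RIG-I and was named after its values were seen, measured 9.50, 9.61 and 10.03 in shLuc, 9.14, 9.40 and 9.60 in shApela #1, and 9.66, 9.70 and 10.06 in shApela #2. In each group the third array was highest, and at each replicate number shApela #1 was the lowest of the 3. The difference of shApela #1 from shLuc was -0.34 (SE 0.17, limma adjusted p = 0.761, and 0.0469 with the replicate block). Between the hairpins it was 0.43 (SE 0.17, adjusted p = 0.333, and 0.0129 with the block). The latter was 0.30 (adjusted p = 0.557) without the third shApela #2 array. In fits of all 9 arrays without array weights, no other of the 17 measured sensors and adaptors passed, with or without the block. With weights Zbp1, which was dim, passed between the hairpins (limma adjusted p = 0.0323). Unweighted, its difference there was 0.19, or 0.12 without the third shApela #2 array.

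Ligands passed in 0 comparisons (8 measured), and the largest value was 0.26 for Ifna5, an interferon alpha, between the hairpins (SE 0.12, limma adjusted p = 0.404). It was 0.12 (adjusted p = 0.637) without the third shApela #2 array. Receptors and kinases also gave 0 of 9. Their lead was Tyk2, a kinase on the type I interferon receptor, at -0.26 between the hairpins (SE 0.069, adjusted p = 0.141), or -0.20 (adjusted p = 0.216) without that array and -0.20 (adjusted p = 0.0332) with array weights. Against shLuc Tyk2 was 0.26 with shApela #1 (limma adjusted p = 0.243, and 0.0229 with weights). With shApela #2 it was -0.0031 (adjusted p = 0.992), or 0.0585 without that array. Ifngr2 also passed with weights in shApela #1 against shLuc (0.28, adjusted p = 0.0207). Transcription factors gave 0 of 5, led by Irf5 at 0.13 with shApela #2 against shLuc (SE 0.058, adjusted p = 0.68), or 0.14 (adjusted p = 0.929) without that array.

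In the fit of all 9 arrays with neither block nor array weights, the 41 measured effectors passed in 0 comparisons. With weights Ube2l6 and Cxcl10, both dim, passed in shApela #1 against shLuc (0.20 and -0.21, limma adjusted p = 0.0265 and 0.0338). Between the hairpins B2m, Cxcl10, Oasl2 and Ube2l6 passed with weights (limma adjusted p = 0.0037, 0.031, 0.039 and 0.042). Unweighted, Cxcl10 and Ube2l6 differed there by 0.14 and -0.135, or 0.16 and -0.11 without the third shApela #2 array. At an unadjusted limma p of 0.05 without weights, 3 effectors were higher and 4 lower with shApela #1 than in shLuc (7.69% of all genes). With shApela #2 it was 2 higher and 1 lower (5.77%). At any size of difference, 14 effectors were higher and 27 lower with shApela #1, where 45.5% of all genes were lower. With shApela #2, 27 were higher and 14 lower, where 42.4% of all genes were lower. Ifitm3 and Oas2, named after their values were seen, were higher with both hairpins. Ifitm3 differed by 0.11 and 0.17 (limma adjusted p = 0.519 and 0.669). Oas2, which was dim, differed by 0.25 and 0.23 (0.392 and 0.68). The second values were 0.18 and 0.17 without the third shApela #2 array. B2m, the light chain of MHC class I, measured 9.51, 9.52 and 9.22 in shLuc, 9.63, 9.62 and 9.46 in shApela #1, and 9.24, 9.18 and 8.98 in shApela #2. The shApela #2 arrays lay below all shApela #1 arrays and the third array was lowest in every group. The difference between the hairpins was -0.44 (SE 0.096, limma adjusted p = 0.0878, and 0.00712 with the replicate block), and -0.36 without the third shApela #2 array. Oasl2, of the oligoadenylate synthetase family and again named after its values were seen, measured 7.18, 7.32 and 7.37 in shLuc, 6.90, 7.09 and 6.81 in shApela #1, and 7.18, 7.40 and 7.35 in shApela #2. All 3 shApela #1 arrays lay below the other 6. The difference between the hairpins was 0.38 (SE 0.088, adjusted p = 0.106, and 0.0345 with the block), and 0.36 without the third shApela #2 array (adjusted p = 0.183).

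Of the 7 brakes on the pathway, Socs3, an inhibitor of JAK kinases that leukemia inhibitory factor also induces, varied most. It measured 9.74, 9.78 and 9.12 in shLuc, 10.37, 10.12 and 9.40 in shApela #1, and 9.62, 9.40 and 8.76 in shApela #2. The third array was lowest by a wide margin in every group, and at each replicate number shApela #1 was highest and shApela #2 lowest. The difference between the hairpins was -0.70 (SE 0.30, limma adjusted p = 0.376, and 0.00712 with the replicate block), and that of shApela #1 from shLuc was 0.42 (SE 0.30, adjusted p = 0.973, and 0.0498 with the block). The former was -0.45 (adjusted p = 0.631) in a fit that left out the third shApela #2 array, -0.37 (adjusted p = 0.432) for the mean of its probe sets, and -0.73 (adjusted p = 0.0377) with arrays numbered 1 and 2 only. The feedback inhibitors Socs1 and Usp18 passed in 0 comparisons with or without it.

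**Figure D4:**
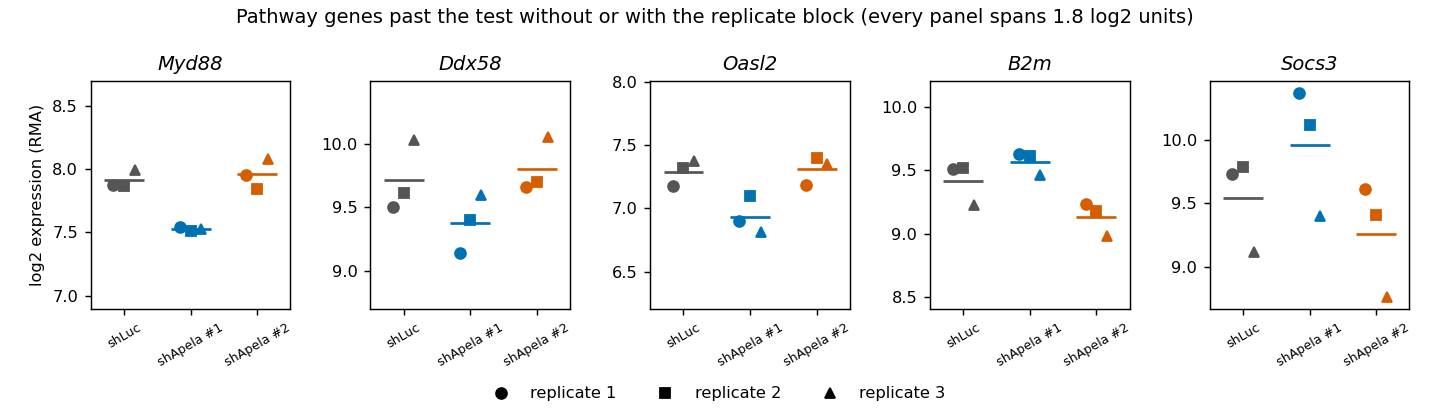
Log2 expression (RMA) of Myd88, Ddx58, Oasl2, B2m and Socs3 by hairpin group, with 1 point per array, the replicate number as marker shape and the group mean as a bar. The 3 shApela #1 arrays of Myd88 sit between 7.51 and 7.54, below all others, while for Socs3 the third array is lowest in each group.

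Markers of other cells that can express these genes were measured beside them. The 7 leukocyte markers averaged 6.06 to 6.11 on the shLuc arrays, 6.11 to 6.14 with shApela #1 and 6.10 to 6.25 with shApela #2, with group means of Ptprc at 5.32, 5.32 and 5.40. Before rounding, the shApela #1 range (6.1123 to 6.1384) lay above that of shLuc (6.0624 to 6.1075). Cd68 differed most from shLuc in this list, with group means of 9.60, 9.77 and 9.67. The 9 fibroblast markers averaged 6.80 to 6.93, 6.67 to 6.87 and 6.82 to 6.90, with group means of Col1a1 at 7.71, 7.65 and 7.80. Acta2 differed most from shLuc among them, with group means of 9.19, 8.52 and 8.64. The 7 endoderm markers averaged 6.74 to 6.81, 6.66 to 6.80 and 6.72 to 6.87, with Gata6 at 7.44, 7.39 and 7.44. Dab2 differed most from shLuc among these, with group means of 7.78, 7.44 and 7.52. The 6 trophectoderm markers averaged 7.54 to 7.66, 7.20 to 7.52 and 7.50 to 7.6, so that the shApela #1 range lay below that of shLuc, as for Myd88 and Oasl2. The largest differences of shApela #1 from shLuc in this list were those of Krt8 (-0.49) and Krt18 (-0.46). Cdx2 differed by -0.04, with group means of 5.87, 5.83 and 5.97. In these lists 0 markers passed in any comparison by limma. Dim markers made up 6 of the 7 leukocyte, 3 of the 9 fibroblast, 4 of the 7 endoderm and 3 of the 6 trophectoderm markers. The part of these cells in the values of Myd88, Ddx58 and Oasl2 was not tested.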

How the data were processed

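Expression was measured on 9 Affymetrix arrays, and groups and replicate numbers came from the sample titles. The deposited values are log2 expression per probe set, made by the authors with RMA in Partek 6.6, per the submitters' processing notes. The values span 3.86 to 13.48, from which base 2 was taken. The RMA settings, the log base and the array annotation version were not given in the sources used here. RMA subtracts background, equalises distributions between arrays and summarises probes, which compresses small signals. The deposited values were still not equal in distribution, with array medians from 7.03 to 7.12. The 3 arrays per group limit the precision. Scanner files were not analysed here.

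Of 28853 probe sets, GEO's platform annotation gave 21775 a single gene symbol, 1578 several and 5500 none. Named probe sets were matched by gene identifier to RefSeq GRCm38.p6 (21684 matched, 0 symbols changed). Each of the 19938 genes kept its brightest probe set.

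All genes were fitted together in R 4.3.3 with limma 3.58.1 (lmFit, eBayes, two-sided, 6 residual degrees of freedom). The p-values were adjusted by the Benjamini-Hochberg method over all genes of a comparison, and the code was checked on simulated data. The labels do not say whether repeats were separate cultures, so p-values cover the spread between these samples, possibly technical. The genes, lists and tests were chosen with earlier results of these data known. Text names all 8 genes, Apela, the largest difference in each role, any pathway gene past the test, the first markers of each list used, and the 3 genes most like each of the 3 most variable genes. Ifitm3, Oas2, the pathway genes named only for passing with array weights or the replicate block, and the markers with the largest differences from shLuc in the lists of other cells were added after their values were seen.

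Whether equal replicate numbers pair arrays was checked by correlating deviations from group means. The correlations were 0.44, 0.40 and 0.68 between shLuc and shApela #1, and 0.18, 0.21 and 0.21 between the hairpins. Between shLuc and shApela #2 they were -0.01, 0.67 and 0.47. Arrays with unequal numbers were not correlated, so these values cannot show whether the numbers pair arrays. The labels do not say what a number marks. The block fits an effect of each number that is common to all groups, so its SE and p-values hold only if the numbers do pair arrays. Alternatives tried were another variance prior, a filter on dim genes, 2 further normalizations, array weights, the block, fits of fewer arrays, other probe sets and a stricter threshold. Values with the replicate block are given beside results it changes.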

Additional observations from a re-analysis of the deposited data

How the results depend on the processing

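In none of the alternatives that were run did any of the 8 genes pass the test, and 0 of 423 alternative values of their differences did (33 changed sign, in 12 of 24 differences). With the replicate block the count of the 8 genes past the test was 0 in each comparison, and the block changed no call of theirs. Signs that changed, for shApela #2 against shLuc, were Ifit1 (-0.0056 after a second quantile normalization, -0.0077 with array weights, -0.0047 with arrays numbered 1 and 2 only), Bst2 (0.029 after the normalization, 0.012 with those arrays), Irf3 (-0.0039 with array medians centred), Stat2 (0.012 with weights), Irf1 (0.024 with weights, 0.0041 for the mean of its probe sets), Irf7 (-0.042 and -0.067 with weights and with those arrays) and Irf9 (0.035 and 0.029). Myd88 gave -0.0063 with weights. For shApela #1 against shLuc, Bst2 gave 0.016 with weights and 0.037 with those arrays. Between the hairpins, Bst2 gave 0.047 after the normalization and Irf7 -0.030 and -0.047 with weights and with those arrays. The causes were not tested.

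The median over the 8 genes, in the order shApela #1 against shLuc, shApela #2 against shLuc and between the hairpins, was 0.11, -0.048 and -0.10 with dim genes left out, where 5 genes remained. It was -0.023 and 0.0037 in the last pair with medians centred, -0.024 between the hairpins with weights, and 0.023 and -0.035 in the first and last with arrays numbered 1 and 2. Leaving out 1 array gave medians from -0.0072 to 0.021, -0.035 to 0.043 and -0.028 to 0.046.

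Alternatives for the wider list were chosen after seeing the data. For shApela #1 against shLuc 5 genes passed with weights, 3 with the replicate block, and 1 with dim genes left out, the compared arrays only, the mean of probe sets or arrays numbered 1 and 2. Between the hairpins 8 passed with weights, 5 with the block, 3 with arrays numbered 1 and 2, and 0 with the compared arrays only or at a threshold of 0.01. Leaving out 1 array gave 0 to 1 in both. Over all genes, 67, 3 and 189 passed in the 3 comparisons, against 190, 8 and 653 with the block and 688, 23 and 1446 with weights. A second normalization gave 121 in the first and 7 in the second, the prior with trend 37 and centring 42 in the first. Arrays numbered 1 and 2 gave 249 and 434 in the first and last, the compared arrays only 44, 2 and 28, and a threshold of 0.01 gave 7, 2 and 27. Leaving out 1 array gave 3 to 146, 2 to 6 and 19 to 222.

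Leaving out 1 array moved values that changed sign over these ranges. With shApela #1 they were -0.037 to 0.034 for Bst2, -0.0096 to 0.016 for Ifih1 and -0.032 to 0.027 for Irf7. With shApela #2 they were -0.047 to 0.024 for Bst2, -0.018 to 0.081 for Ifit1, -0.12 to 0.048 for Irf1, -0.024 to 0.091 for Irf3, -0.038 to 0.18 for Irf7, -0.23 to 0.044 for Stat2 and -0.015 to 0.10 for Myd88. Between the hairpins they were -0.023 to 0.0086 for Bst2 and -0.035 to 0.18 for Irf7. Other values of shApela #1 against shLuc kept their sign but moved: Stat2 from 0.025 to 0.23, Irf9 from 0.035 to 0.17, Irf3 from 0.057 to 0.20, Irf1 from -0.26 to -0.092 and Ifit1 from -0.13 to -0.034. Between the hairpins the ranges were -0.35 to -0.082 for Stat2, 0.044 to 0.23 for Irf1, -0.14 to -0.033 for Irf3, -0.24 to -0.10 for Irf9, 0.071 to 0.17 for Ifit1 and 0.010 to 0.088 for Ifih1. For shApela #2 against shLuc they were -0.14 to -0.0023 for Irf9 and 0.016 to 0.094 for Ifih1.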
